A study of Homo sapiens with 8 samples.

Results

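The genes described here encode 9 enzymes or enzyme subunits of the tricarboxylic acid (TCA) cycle: CS, IDH2, IDH3A, OGDH, DLST, DLD, SUCLG1, FH and MDH2. They were taken as all rows of the transcript count table whose transcript identifier belongs to one of these genes in GENCODE version 44, which gave 9 of 62639 listed genes and 125 of 254070 listed transcripts, 42 of them with at least 1 count. The libraries came from MOLM-13, an established human acute myeloid leukemia cell line, in which a doxycycline (dox)-inducible shRNA was switched on for 9 days in all libraries. In 4 libraries the shRNA was directed against PTBP1 (shPTBP1) and in 4 it was the control hairpin (shSCR, shControl in the labels), so that dox and the vector were shared by both groups and the hairpin was the difference between them. The study describes 1 hairpin per arm, and differences between the 2 cell populations other than the PTBP1 level cannot be told apart from the knockdown. Total RNA was copied into cDNA and sequenced on a nanopore instrument, which reads long molecules and so allows counts by isoform.

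The TCA cycle takes acetyl groups from acetyl-CoA in the mitochondrial matrix, joins them to oxaloacetate, and oxidizes the product step by step back to oxaloacetate, handing electrons to NADH and FADH2 for respiration. CS, citrate synthase, makes the entry step, and isocitrate dehydrogenases, the 2-oxoglutarate dehydrogenase complex, succinyl-CoA ligase, succinate dehydrogenase, fumarase and malate dehydrogenase follow in turn. PTBP1 is an RNA-binding protein that binds pyrimidine-rich RNA, often near splice sites, and is best known as a regulator of alternative exons.

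PTBP1 itself had 10, 15, 13 and 23 counts in the shPTBP1 libraries and 65, 90, 64 and 78 in the shSCR libraries, a log2 fold change of -2.26 (SE 0.22, adjusted p = 7.18e-05). Totals were 1528449 to 1613342 counts per library. Mitochondrially encoded genes held between 1.74% and 2.18% of the counts in 7 libraries and 1.09% in shSCR replicate 2, which is the library that stood apart. Of 10 markers of myeloid leukemia cells all 10 had counts, led by LYZ, but SPI1, CD34 and MEIS1 were close to 0; their summed level was 549 to 665 CPM (counts per 1000000) in shPTBP1 and 523 to 544 CPM in shSCR. LYZ alone had 283 to 415 CPM in shPTBP1 and 249 to 302 CPM in shSCR. The sums of the 9 other markers overlapped, at 234 to 273 CPM and 239 to 273 CPM. FLT3 had 1.86 to 3.82 CPM in shPTBP1 against 3.93 to 7.44 CPM in shSCR, low levels that rest on few counts per library. Of the 7597 genes tested below, 12.7% had groups that did not overlap. Of 18 markers of other cell types 7 were at 0 in all libraries, and the sum of the list was 43.1 to 51.7 CPM in shPTBP1 against 42.4 to 51.4 CPM in shSCR. Most of this sum was PECAM1, with 31.1 to 35.3 CPM and 30.6 to 37.8 CPM, followed by COL1A2. The part of these markers in the results below was not tested.

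DLD, IDH2 and IDH3A each had a pair of abundant isoforms, which differ in exons near the 5′ end and in the length of the last exon. The last exon was listed with 2005 bases in DLD-201 and 520 in DLD-205, with 1309 in IDH2-201 and 358 in IDH2-204, and with 3024 in IDH3A-201 and 1621 in IDH3A-206. The sequence is printed for DLD, whose pair differs by a cassette exon as well. It shows DLD exon 4 (hg38, chr7:107902265-107902413, plus strand), with the 69 coding bases of the exon in capitals between 60 bases of intron 3 and 20 of intron 4. DLD-201 holds this exon and DLD-205 does not, and its length is 23 whole codons.
DLD exon 4: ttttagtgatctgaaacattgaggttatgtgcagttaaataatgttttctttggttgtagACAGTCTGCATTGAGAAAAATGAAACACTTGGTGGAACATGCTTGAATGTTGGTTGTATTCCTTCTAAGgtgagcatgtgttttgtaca
In IDH2 the pair differs, beside the last exon, by exons 2 and 3, of 92 and 166 bases (258 together), which IDH2-204 lacks. GENCODE lists IDH2-204 as a target of nonsense-mediated decay, the pathway that removes mRNAs with early stops. In IDH3A, IDH3A-206 has no exons 1 to 3 and begins 122 bases before exon 4, inside intron 3 of IDH3A-201. GENCODE gives it no coding sequence.

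In the 60 bases before DLD exon 4, C and T made up 51.7% of the letters, below the median of 58.3% over 86286 windows before exons of protein-coding transcripts of the genes tested. The window before exon 5 held 61.7%. The motif TCTT, searched on the strand that reads as the RNA, stood in both windows, and it was present in 54.9% of all windows of this length.

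At the gene level, 7597 genes were tested with edgeR, all 9 enzymes among them. No enzyme passed an adjusted p of 0.05 in either direction, against 242 genes lower (3.19% of those tested) and 179 higher (2.36%) with shPTBP1. At an unadjusted p under 0.05 there were 3 of 9 enzymes (CS and OGDH higher, MDH2 lower) and 1459 of 7597 genes. In the same 3 enzymes the libraries of the groups did not overlap in normalized CPM, which was so for 12.7% of all genes tested. DESeq2 called 1 of the 8 enzymes for which it gave an adjusted p, CS, against 4.97% of 5975 genes in either direction. The voom and trend fits of limma called 0 enzymes, against 4.94% and 5.28% of 7597 genes. The median log2 fold change was 0.05 over the 9 enzymes and -2.38e-05 over all genes tested. Values below are normalized CPM, the gene's counts per 1000000 of a library total adjusted by TMM. RNA from a whole culture cannot tell fewer cells expressing a gene from less RNA per cell.

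CS (ENSG00000062485, chr12:56271699-56300391, minus strand), which condenses acetyl-CoA with oxaloacetate to citrate, was the enzyme with the most counts, 665 to 919 per library. Its level was 574, 512, 535 and 510.3 normalized CPM in the shPTBP1 libraries and 452, 486, 464 and 421 in the shSCR libraries. Every shPTBP1 library lay above every shSCR library, with the nearest pair being 510.3 and 486. The means were 533 ± 29.8 and 456 ± 27.0 normalized CPM (SD, n = 4 each), 1.17-fold apart, with a log2 fold change of 0.23 (SE 0.07, 95% interval 0.09 to 0.37). The adjusted p of edgeR was 0.0626 and the exact permutation p 0.0286, which is the smallest that 4 against 4 libraries can give. The call depended on the procedure: the adjusted p was 0.0443 with DESeq2, 0.0464 among genes with a mean of at least 50 counts, and 0.0467 without shSCR replicate 2, the library with the low mitochondrial share.

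Isocitrate is oxidized by 2 mitochondrial enzymes. IDH2 (ENSG00000182054, chr15:90083045-90102477, minus strand) uses NADP+ and is a known site of mutation in acute myeloid leukemia. Its level was 70.6, 83.5, 76.1 and 58.8 normalized CPM in shPTBP1 and 76.5, 78.0, 69.2 and 77.3 in shSCR. The shPTBP1 libraries lay on both sides of the shSCR range, with means of 72.3 ± 10.4 and 75.2 ± 4.1 (SD, n = 4 each). The log2 fold change was -0.06 (95% interval -0.30 to 0.18, adjusted p = 0.832), and it was 0.027 without shPTBP1 replicate 4.

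IDH3A (ENSG00000166411, chr15:78131498-78171945, plus strand) is the catalytic subunit of the NAD+-dependent enzyme that works in the cycle proper. It had 32.5, 28.1, 37.1 and 33.5 normalized CPM in shPTBP1 and 35.8, 38.4, 31.6 and 32.9 in shSCR, from 43 to 61 counts per library. The groups overlapped over most of their range, and the log2 fold change was -0.08 (95% interval -0.37 to 0.21, adjusted p = 0.809).

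The 2-oxoglutarate dehydrogenase complex, which makes succinyl-CoA, is built from OGDH (E1, the decarboxylase), DLST (E2, which carries the lipoyl arm) and DLD (E3, which reoxidizes it). OGDH (ENSG00000105953, chr7:44606572-44709066, plus strand) had 61, 49, 60 and 62 counts in shPTBP1 and 39, 49, 45 and 39 in shSCR. These were 38.1, 32.0, 39.0 and 39.2 normalized CPM against 23.7, 30.8, 29.6 and 24.7. The groups were separated by a narrow margin, since replicate 2 of both arms had 49 counts and the levels of these libraries were 32.0 and 30.8. On the main isoform alone, OGDH-201, these libraries had 46 and 49 counts. The normalized CPM of OGDH-201 overlapped between the groups (exact permutation p = 0.0571). The means of 37.1 ± 3.4 and 27.2 ± 3.5 (SD, n = 4 each) differed 1.36-fold, the largest log2 fold change of the 9 enzymes, 0.45 (SE 0.14, 95% interval 0.14 to 0.76). Its adjusted p was 0.0926.

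DLST (ENSG00000119689, chr14:74881891-74903743, plus strand) was the enzyme with the fewest counts, 14, 15, 12 and 13 in shPTBP1 and 13, 25, 12 and 14 in shSCR. Apart from the 25 counts of shSCR replicate 2, all libraries lay between 12 and 15. The log2 fold change was -0.22 with a wide interval (-0.85 to 0.40, adjusted p = 0.740), and it was 0.072 without shSCR replicate 2. At this depth the interval holds both a fall of 0.85 and a rise of 0.40 on the log2 scale. GENCODE lists 1 processed copy named after DLST, which had 1 count in all libraries together. The authors removed reads of low mapping quality; how many reads of DLST this touched was not analysed here.

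DLD (ENSG00000091140, chr7:107891162-107931730, plus strand) is also the E3 of the pyruvate and branched-chain ketoacid dehydrogenase complexes and of the glycine cleavage system. It had 96.9, 84.2, 78.0 and 77.8 normalized CPM in shPTBP1 and 77.1, 72.3, 76.4 and 92.5 in shSCR. The groups overlapped through shSCR replicate 4, at 92.5; the other shSCR libraries lay below all shPTBP1 libraries, by less than 1 normalized CPM at the nearest pair. The log2 fold change was 0.08 (95% interval -0.15 to 0.31, adjusted p = 0.740), and it was 0.0089 without shPTBP1 replicate 1 and 0.16 without shSCR replicate 4. The complex thus showed 3 different estimates, 0.45 for E1, -0.22 for E2 and 0.08 for E3, whose 95% intervals overlap; the differences between them were not tested.

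SUCLG1 (ENSG00000163541, chr2:84423528-84460045, minus strand) is the alpha subunit that succinyl-CoA ligase uses with either of its beta subunits, SUCLA2 or SUCLG2. It had 362, 404, 372 and 410.4 normalized CPM in shPTBP1 and 377, 368, 385 and 368 in shSCR. The shSCR libraries lay within the wider shPTBP1 range. Its interval was the narrowest of the 9, with a log2 fold change of 0.05 (95% interval -0.09 to 0.18, adjusted p = 0.746), so that in fold terms a rise above 1.13-fold or a fall below 0.941-fold lies outside it.

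FH (ENSG00000091483, chr1:241497511-241519799, minus strand), fumarase, hydrates fumarate to malate. Its level was 63.7, 50.9, 57.2 and 63.2 normalized CPM in shPTBP1 and 47.9, 37.7, 61.3 and 46.9 in shSCR. Replicates 1, 2 and 4 of shSCR lay below all shPTBP1 libraries and replicate 3, at 61.3, lay among them. The log2 fold change was 0.28 (95% interval -0.02 to 0.59, adjusted p = 0.299), and it was 0.18 without shSCR replicate 2 and 0.41 without shSCR replicate 3.

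MDH2 (ENSG00000146701, chr7:76048051-76067508, plus strand), the mitochondrial malate dehydrogenase that regenerates oxaloacetate, was the only one of the 9 with all shPTBP1 libraries below all shSCR libraries. It had 120.0, 112, 112 and 117 normalized CPM in shPTBP1 and 149, 131, 133 and 132 in shSCR. Replicates 2, 3 and 4 of shSCR lay close together and replicate 1 lay above them. The means were 115 ± 3.9 and 136 ± 8.2 (SD, n = 4 each), with a log2 fold change of -0.24 (SE 0.08, 95% interval -0.41 to -0.08, adjusted p = 0.0845). MDH2 makes the oxaloacetate that CS consumes, and the estimates of these neighbours in the cycle had opposite signs, 0.23 for CS and -0.24 for MDH2.

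Added over the 9 enzymes, the level was 1367, 1317, 1314 and 1318 normalized CPM in shPTBP1 and 1247, 1258, 1258 and 1205 in shSCR. Every shPTBP1 sum was above every shSCR sum, but CS alone made up 38.7% to 42.0% of the enzymes' counts in shPTBP1 and 35.0% to 38.6% in shSCR. Without CS the sums were 796 ± 13.2 and 786 ± 10.8 normalized CPM (SD, n = 4 each), and the groups overlapped. The 3 other genes whose log2 CPM followed the sum most closely over the 8 libraries, of 7588 ranked, were SNHG12 (r = 0.970), HNMT (r = 0.960) and ANXA7 (r = 0.957). These values describe libraries that fall in 2 groups, and all genes share the library totals.

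Levels of different enzymes were set side by side per length, which for long reads need not be the scale of molecules. Divided by the mean length of their counted transcripts, the order in shSCR was SUCLG1 (295 normalized CPM per kb), CS (156), MDH2 (63.9), IDH2 (34.0), DLD (30.1), FH (26.9), IDH3A (10.9), OGDH (6.58) and DLST (3.59). Per kb, IDH2, DLD and FH overlapped from library to library and had no order among them. All other neighbours in the order per kb were separated in all 4 shSCR libraries. Without division by length CS (456 normalized CPM) was above SUCLG1 (375) and DLD (79.6) above IDH2 (75.2). FH, at 37.7 to 61.3 normalized CPM in shSCR, then lay below every shSCR library of IDH2 and DLD. In shPTBP1 the levels of IDH2, DLD and FH were 32.7, 32.5 and 32.8 per kb. OGDH, at 7.86 to 9.49 per kb, then overlapped IDH3A at 9.20 to 11.5 per kb. The subunits of the 2-oxoglutarate dehydrogenase complex thus differed in level per kb in shSCR, with DLD at 30.1, OGDH at 6.58 and DLST at 3.59.

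The cycle genes outside the 9 and the genes around the cycle were read from 4 further lists with 48 genes, of which 38 could be tested. Among them 1 was called lower (background 3.19%) and none higher (background 2.36%). An unadjusted p under 0.05 in edgeR was found for 4 of these 38 genes, against 1459 of all 7597 genes tested. DESeq2 did not call another gene of these lists.

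**Figure D1:**
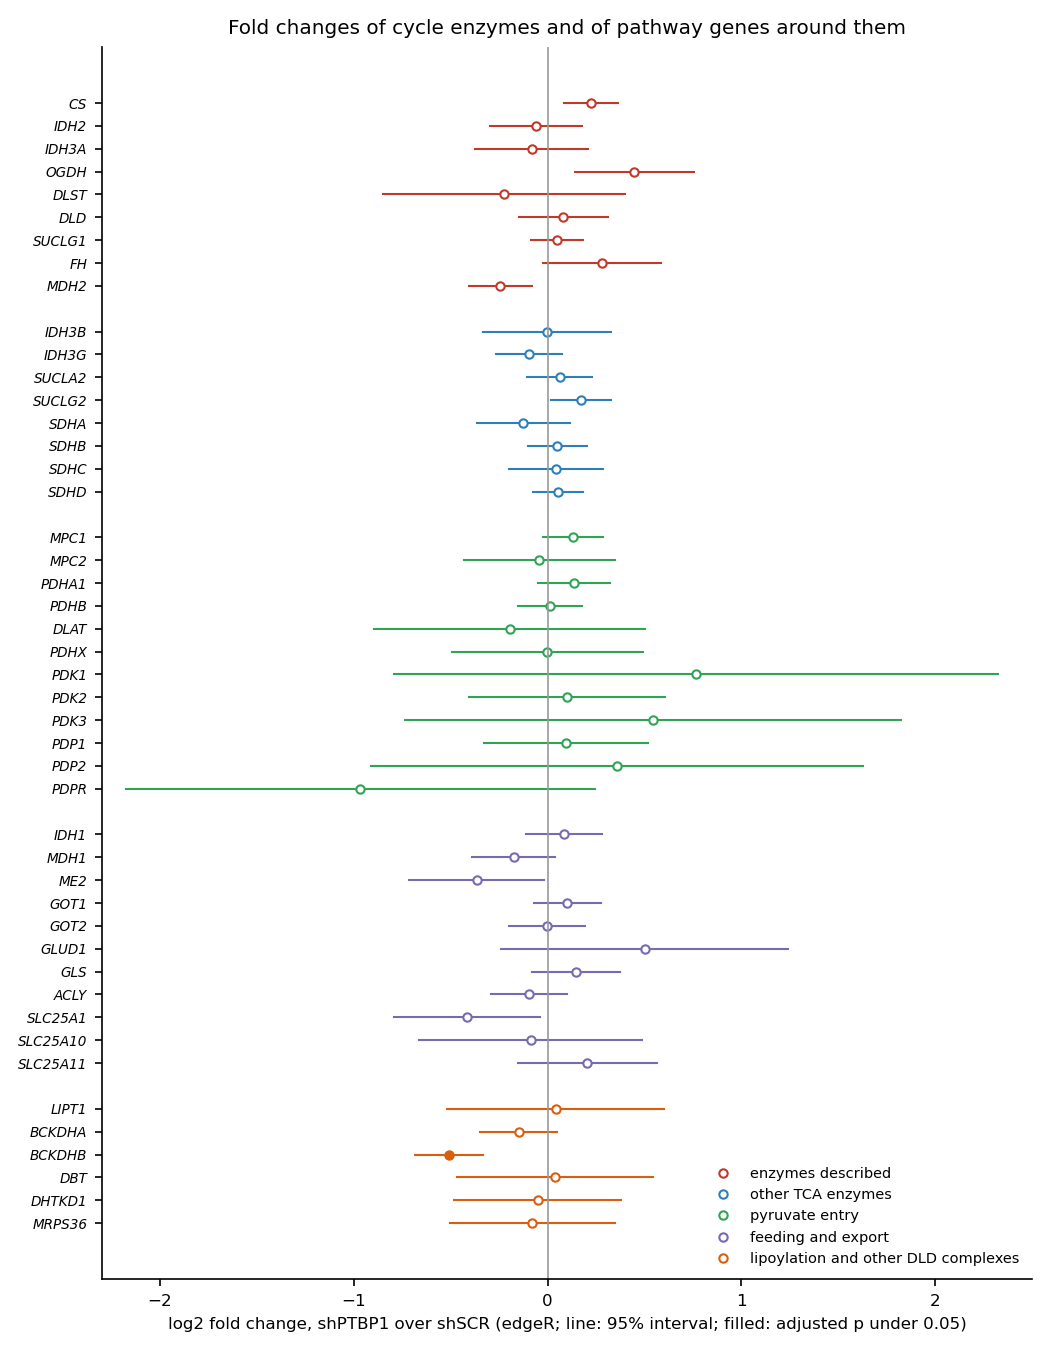
Log2 fold changes (shPTBP1 over shSCR) with 95% intervals from edgeR for the 9 enzymes and other pathway genes in 4 lists; filled points have an adjusted p under 0.05. BCKDHB, at -0.51, is the only filled point, and the widest intervals belong to genes with few or uneven counts such as PDK1 and PDPR.

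Of the other TCA enzymes 9 of 10 were tested and none was called, with a median log2 fold change of 0.05. They include the other subunits of NAD+-dependent isocitrate dehydrogenase and of succinyl-CoA ligase, and the 4 subunits of succinate dehydrogenase. SUCLG2, the beta subunit of the GTP-forming succinyl-CoA ligase, had the lowest unadjusted p of this list. It had 277, 242, 256 and 254 counts in shPTBP1 and 228, 247, 229 and 221 in shSCR, which overlap. After normalization the groups did not overlap, as for 12.7% of all genes tested. Its log2 fold change was 0.17 (SE 0.07, adjusted p = 0.213).

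Of the genes that bring pyruvate into the cycle, 12 of 14 were tested, none was called, and the median was 0.10. MPC1, a subunit of the mitochondrial pyruvate carrier, had the lowest unadjusted p of this list (log2 fold change 0.13, SE 0.07, adjusted p = 0.338), with overlapping groups. Of genes that feed or drain the cycle, 11 of 14 were tested and none was called. SLC25A1, the citrate carrier that exports the product of CS from mitochondria, had the lowest unadjusted p here. It had 33, 46, 30 and 36 counts in shPTBP1 and 55, 43, 54 and 44 in shSCR, with a log2 fold change of -0.41 (SE 0.18, adjusted p = 0.217). Of the last list, genes of lipoylation and of other complexes that use DLD, 6 of 10 were tested.

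The called gene was BCKDHB, the E1 beta subunit of branched-chain ketoacid dehydrogenase, a complex that shares DLD with the cycle and breaks down branched-chain amino acids. It had 162, 129, 155 and 150 counts in shPTBP1 and 220, 212, 216 and 210 in shSCR. The groups were well apart, with 95.3 ± 7.9 and 136 ± 4.5 normalized CPM (SD, n = 4 each). Its log2 fold change was -0.51 (SE 0.08, adjusted p = 0.00329), and the adjusted p lay between 0.00103 and 0.0155 in 15 alternative analyses. Its partners were not called: BCKDHA, the E1 alpha subunit, had a log2 fold change of -0.15 (adjusted p = 0.411), DBT, the E2, 0.04 (adjusted p = 0.955), and DLD, the E3, 0.08.

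Isoforms were compared as shares of a gene's counts. These are counts assigned to annotated isoforms, and how much of an isoform each read covered was not examined. Of 5464 isoforms tested with diffSpliceDGE of edgeR, 61 (1.12%) were called, with an adjusted p under 0.05 and mean shares at least 10 percentage points apart. The 8 isoforms of the enzymes that could be tested, 2 each of CS, IDH2, IDH3A and DLD, gave 0 calls, also 0 with limma's diffSplice, and none had an unadjusted p under 0.05. The shares of the groups overlapped in all 8, against 10.7% of all tested isoforms whose shares did not overlap. The other 5 enzymes were counted almost entirely on 1 isoform: in shSCR the mean share was 100% for DLST-202, 99.5% for SUCLG1-201, 97.2% for FH-201, 96.1% for MDH2-201 and 95.5% for OGDH-201.

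**Figure D2:**
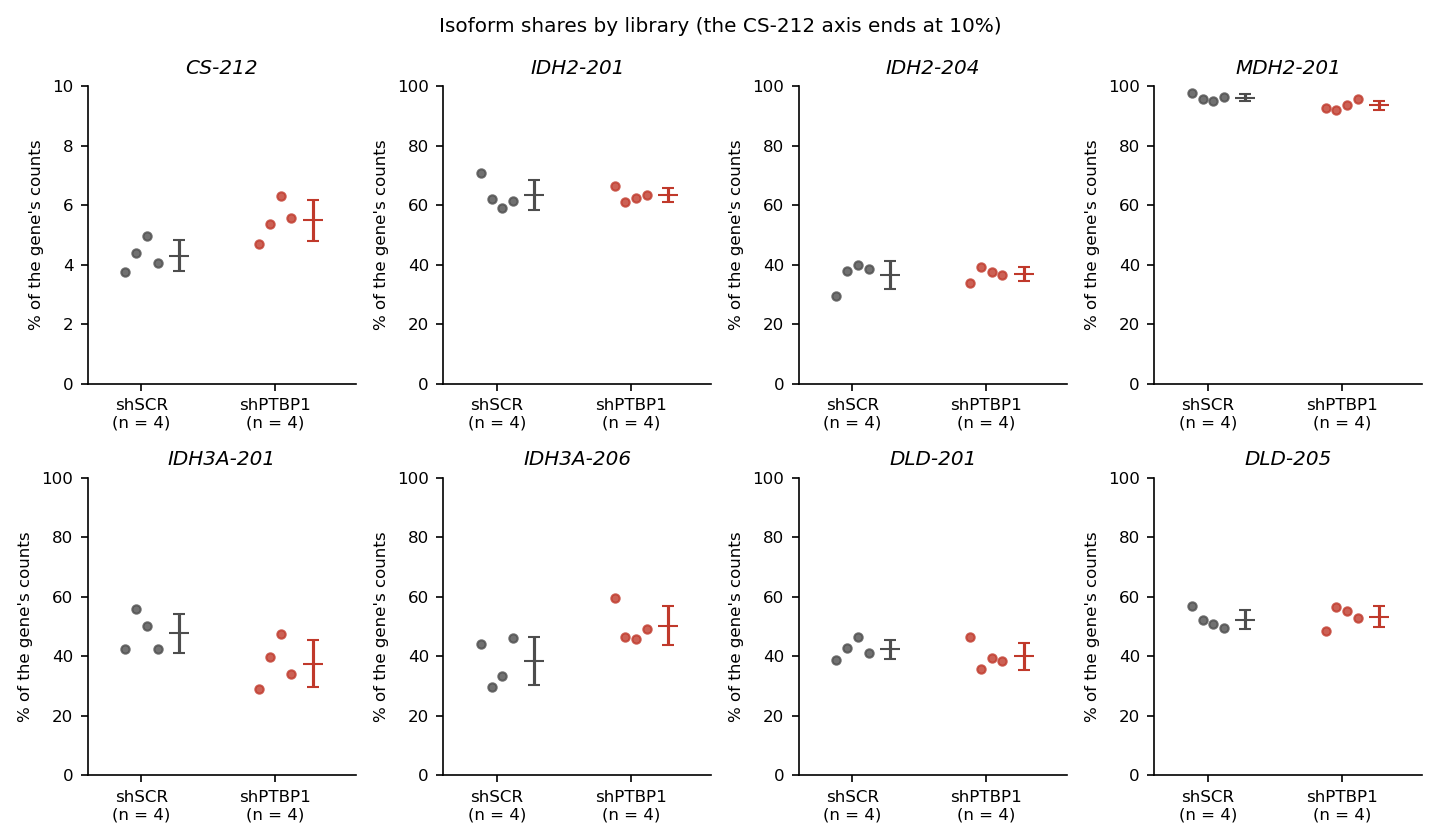
Share of the gene's counts held by 8 isoforms in each library (grey shSCR, red shPTBP1, mean and SD beside the points). IDH2 and DLD isoforms lie near the same height in both groups, while IDH3A-206 has a higher mean in shPTBP1 (50.2% against 38.3%) with overlapping libraries; the CS-212 axis ends at 10%.

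DLD, whose main pair of isoforms differs by the cassette exon 4, had nearly equal shares of the pair in both groups. Isoforms holding the exon 4 shown above had 80 of 155, 53 of 126, 52 of 118 and 56 of 121 counts in the shPTBP1 libraries. They had 55 of 127, 55 of 115, 57 of 116 and 73 of 145 in the shSCR libraries. The totals are the counts of isoforms that span the place of the exon. Their mean share was 46.0% ± 4.1 and 47.7% ± 3.1 (SD, n = 4 each), which overlap, with an exact permutation p of 0.543. The pair also differs in the last exon, and whether single reads covered exon 4 was not examined. The 95% Clopper-Pearson interval of a single library spans 16.2 to 18.9 percentage points. The isoform without the exon, DLD-205, was thus the larger one, with 53.2% ± 3.6 and 52.3% ± 3.2 of the gene's counts, and DLD-201 held 39.9% ± 4.6 and 42.2% ± 3.3 (SD, n = 4 each). DLD-203, listed as a target of nonsense-mediated decay, held 5.52% and 5.36%.

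IDH2-204, which lacks exons 2 and 3, was counted 38, 50, 44 and 34 times in shPTBP1 and 37, 47, 42 and 47 times in shSCR. It held 36.7% ± 2.3 and 36.4% ± 4.8 of the counts of IDH2 (SD, n = 4 each), with an exact permutation p of 0.943. In both groups more than 36% of the IDH2 counts were therefore assigned on average to an isoform that does not encode the whole enzyme. IDH2-204 also has a shorter last exon than IDH2-201, and whether each read reached the place of exons 2 and 3 was not examined. The normalized CPM of the full-length IDH2-201 was 45.6 ± 5.8 and 47.7 ± 5.4 (SD, n = 4 each).

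The largest difference in a share among the enzymes was in IDH3A. IDH3A-206, which begins within intron 3, was counted 31, 20, 26 and 26 times in shPTBP1 and 26, 18, 16 and 24 times in shSCR. Its share was 50.2% ± 6.4 and 38.3% ± 8.1 (SD, n = 4 each), a difference of 11.9 percentage points with an exact permutation p of 0.0571. The full-length IDH3A-201 had a difference of the opposite sign, with 15, 17, 27 and 18 counts against 25, 34, 24 and 22 and shares of 37.4% ± 7.9 and 47.6% ± 6.5 (exact permutation p = 0.114, SD over n = 4 each). Both pairs of groups overlap, and the adjusted p of diffSpliceDGE was close to 1 for both. With 43 to 61 counts of the gene per library, the 95% interval of a single share spans 24.1 to 31.2 percentage points for IDH3A-206. IDH3A-206 also has a shorter last exon than IDH3A-201, and how far single reads reached was not examined. IDH3A-207 and IDH3A-220 held between 5.25% and 6.74% in each group.

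CS had a minor isoform, CS-212, with an added noncoding exon of 83 bases (chr12:56298609-56298691) after exon 1. GENCODE lists it with a shorter coding sequence, 1200 bases against 1398 in CS-201. It was counted 43, 42, 52 and 45 times in shPTBP1 and 28, 34, 35 and 27 times in shSCR, so that every shPTBP1 count lay above every shSCR count. As a share of CS it was 5.48% ± 0.68 and 4.30% ± 0.52 (SD, n = 4 each; exact permutation p = 0.0571), and the shares overlapped. The main isoform CS-201 had 502 ± 29.9 and 435 ± 24.8 normalized CPM (SD, n = 4 each), and its groups did not overlap either.

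The main isoform of MDH2, MDH2-201, was lower in every shPTBP1 library, as the gene was. It was counted 178, 158, 161 and 177 times in shPTBP1 and 239, 200, 192 and 201 times in shSCR, with 108 ± 4.5 and 131 ± 9.3 normalized CPM (SD, n = 4 each). Its share of the gene was 93.5% ± 1.6 and 96.1% ± 1.1 (SD, n = 4 each; exact permutation p = 0.0571), and 80 of the 1586 counts of MDH2 fell on 3 other isoforms.

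Counts on transcripts of the type protein-coding, as a share of all counts of the gene, summed these isoforms up. OGDH and DLST had all their counts on such transcripts. The share did not separate the groups in any of the 7 other enzymes, against 3.56% of 4611 genes with counts both on and off such transcripts. It was above 90% in every library for 7 of the enzymes, between 60% and 70.6% for IDH2 and between 32.7% and 60.7% for IDH3A. For IDH3A the mean was 43.2% ± 8.6 in shPTBP1 and 54.2% ± 7.4 in shSCR (SD, n = 4 each), a difference of -11.0 percentage points with an exact permutation p of 0.171. This difference was 0.932 points once IDH3A-206 and the other transcripts without a defined coding sequence were counted as protein-coding.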

How the data were processed

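Total RNA of 8 MOLM-13 libraries was sequenced as nanopore cDNA. The authors aligned reads to hg38 with minimap2, kept those with a mapping quality over 50, and counted annotated transcripts with StringTie. Versions and annotation are not given in the sources used here. The deposited values are whole-number counts per transcript. A second deposited table, named TPM, holds CPM: it equals count per library total per 1000000 to within 1e-06, with no length correction.

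Transcripts were matched by identifier to GENCODE version 44 (252562 of 254070; at most 0.115% of counts unmatched) and summed by gene. TMM-normalized gene sums entered the quasi-likelihood fit of edgeR 4.0.16 (group only, filterByExpr, minimum count 10, prior count 2 for log2 CPM), adjusted by Benjamini-Hochberg over all genes tested. Isoforms used diffSpliceDGE. Single values used two-sided exact permutation tests over 70 splits. Labels call the libraries biological replicates; p values measure the spread between them. Replicates differed by more than counting error (2.12 to 3.94 times). Intervals of fold changes come from the edgeR fit and its spread between libraries. Clopper-Pearson intervals of shares reflect counting error alone; copies of 1 amplified molecule are not independent. It is not stated in the sources used here whether counting used strand.

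The enzymes, pathway lists and markers were chosen with earlier results of these data known. All 9 enzymes were named, their isoforms from a mean share of 5%, called pathway genes, the gene of lowest unadjusted p in each list without a call, and the 3 genes most like the sum. PDK1, PDPR and the partners of BCKDHB were named after their values were seen. Alternatives were DESeq2 1.42.0, limma 3.58.1 (voom; trend on log2 of CPM plus 1; diffSplice), DESeq2's size factors, other filters and limits, the replicate block, and leaving out each library. Tests were tried on simulated data. Values of 1 pathway gene and some sequences are not reported here. R 4.3.3 and Python 3.11.15 were used.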

Additional observations from a re-analysis of the deposited data

Results flagged for a closer look

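Single libraries lay far from the other 3 of their group, by Dixon's criterion for 4 values, in 5 of 48 groups examined. For independent groups, chance alone gives such a result in about 1 of 20. The groups here hold levels and isoform shares of the same genes and are not independent. The number of 5 in 48 therefore cannot be set against that rate. For genes, these were OGDH at 32.0 normalized CPM in shPTBP1 replicate 2 (the lowest of its group), DLST at 15.7 in shSCR replicate 2 and MDH2 at 149 in shSCR replicate 1 (the highest of their groups). For isoforms, they were IDH3A-207 with 10.4% of the gene's counts in shSCR replicate 3, which rests on 5 counts, and OGDH-201 with 93.9% in shPTBP1 replicate 2.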

How the results depend on the processing

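No enzyme was called lower under any of 15 alternatives. The number called higher was 1 (CS) with DESeq2 and 1 (CS) among genes with a mean of at least 50 counts. Leaving out single libraries gave 0 to 1, with CS called without shSCR replicate 2. In that order, these settings called 4.97%, 11.1% and 3.61% of all genes with an adjusted p, in either direction. CS ranged from 0.19 to 0.26 in log2 fold change (adjusted p 0.0443 to 0.167), OGDH from 0.39 to 0.51 (0.0716 to 0.328) and MDH2 from -0.28 to -0.20 (0.0531 to 0.311). Over the same omissions IDH2 ranged from a log2 fold change of -0.14 to 0.027 (its sign changed without shPTBP1 replicate 4) and DLST from -0.33 to 0.072 (sign changed without shSCR replicate 2); the cause was not tested. DLST had no adjusted p with DESeq2 and was below the mean of 50 counts. The protein-coding share of IDH3A differed by 0.932 points once transcripts without a defined coding sequence were included, which moves IDH3A-206 into the share. Isoform calls stayed at 0 throughout.

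With the replicate block, 0 enzymes were called (CS 0.23, adjusted p = 0.0861; OGDH 0.158; MDH2 0.106) and BCKDHB stayed called (0.00985). The numbers did not pair the libraries: correlations of deviations were -0.0328 to 0.00889. Depth limits DLST (12 to 25 counts per library) and the isoforms of IDH3A most.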
